A study of Sus scrofa with 12 samples.

Results

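The genes described here are the spliceosome proteins, heterogeneous nuclear ribonucleoproteins (hnRNPs), RBM RNA-binding proteins and RNA helicases of pig blood cells. They were chosen by gene symbol, with earlier results of these data known. A gene was taken when its symbol starts with SRSF, SNRP, SF3A, SF3B, PRPF, LSM, HNRNP, DDX or DHX, or with RBM and a digit, and DDX3X and DDX3Y were left out. This gave 84 members of 7480 genes measured. The SNRP family has 8, SF3 (SF3A and SF3B) 5, PRPF 9, LSM 7, HNRNP 9, RBM 20, DDX 17 and DHX 9, and 0 SRSF genes are listed.

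RNA was measured in 12 libraries of peripheral blood mononuclear cells (PBMC) from Duroc × Landrace × Yorkshire piglets, 4 in each of 3 groups. The control group was not treated, the Salmonella group received Salmonella Typhi, and the sponge plus Salmonella group received the same bacterium with a miR-124 sponge, a synthetic oligonucleotide that binds the microRNA miR-124. The series gives 20 piglets, 10 male and 10 female, aged 4 weeks, with cells collected 12 h after treatment. This time is recorded for the treated libraries, and none is recorded for the control libraries. The design implies a Salmonella effect, a sponge effect on top of Salmonella, and their sum against control. No library was given the sponge without bacteria. Titles in the sponge group mention miR-124 without the word sponge. Neither the animals behind each library nor whether animals or isolated cells were treated is stated, so p-values reflect the spread among these 12 libraries, part of which may be technical.

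Splicing removes introns from pre-mRNA in the spliceosome, which is built from small nuclear ribonucleoproteins (snRNPs). Each carries a ring of Sm or LSm proteins around its small nuclear RNA. SF3A and SF3B are parts of the U2 snRNP at the branch site, PRPF proteins act at different steps of splicing, and hnRNPs and RBM proteins bind pre-mRNA and steer the choice of splice sites. DDX and DHX proteins are RNA helicases that use ATP to remodel RNA and protein complexes in splicing, ribosome assembly, translation and innate immune sensing of RNA. Stimulated leukocytes are known to change both the splicing of many transcripts and the level of interferon-induced helicases.

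Values are log2 units as the authors deposited them, and the base of the logarithm was taken as 2. Depth is unknown, so no counting error is given. Library medians over all genes ran from 5.11 to 5.31. The background level used below is 5.25, the 95th percentile of 194 symbols presumed silent in blood (olfactory receptors, keratin-associated proteins and the like), whose mean was 4.62. Of these symbols, 62 were in the pig gene tables. By their mean over the 12 libraries, 69 of the 84 members stood at or above 5.25 and 15 below it. The 4 sponge plus Salmonella columns differ in kind from the other 8: 65.1% to 71.4% of their values were equal to that of a second gene in the column, against at most 0.0802% in the others. Among the members, 24 to 34 of 84 were tied in each of these columns and 0 in the rest. The treatment and this feature of the columns cannot be told apart in either comparison with the sponge group.

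Some members that nearly every nucleated cell is known to express stood at background in this table. SF3A1, a core subunit of the U2 snRNP, had a mean of 4.44 and was at or below 5.25 in 12 of 12 libraries. PRPF39 was at or below 5.25 in 11 libraries and LSM14B in 10. DDX4, DDX53, RBM20 and RBM46, whose known expression is mostly in germ cells or heart, were at or below it in all 12. Silent genes do not read 0 on this scale, so a difference from a group at this level may be understated.

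In the comparison of Salmonella with control libraries, helicases were among the largest rises and core snRNP proteins were among the largest falls. DDX17, a helicase and splicing coregulator, and DDX60, an interferon-induced helicase, rose by more than 2 log2 units. SNRPD3 and SNRPF of the Sm ring, SF3A3, HNRNPA1, LSM14A and the nucleolar helicase DDX18 fell by 1 unit or more. Of the 84 members, 32 (38.1%) were called at an adjusted p below 0.05, against 33.6% of all genes. The members called higher were 11 (13.1%, all genes 15.7%), and 21 were called lower (25.0%, all genes 17.9%). The 2 groups did not overlap for 33 members (39.3%), against 35.6% of all genes. Among genes with a mean at or above 5.25, 20 of 69 members (29.0%) fell, against 24.9% of 3680 genes, and 10 (14.5%) rose, against 22.6%. In either direction these were 30 members (43.5%) and 47.4% of genes. The median member difference was -0.10, and the median over all genes was -0.02. All adjusted p-values are from limma, fitted over all 7480 genes with Benjamini-Hochberg adjustment.

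The balance of rises and falls depends on scale. With each library centred on its own median, the median difference of all genes moved to -0.10 and that of the members to -0.19, and 10 members were then called higher and 25 lower. Over all genes, the split was 1175 higher and 1338 lower as deposited and 965 higher and 1778 lower after centring. The member median also depended on single libraries, at -0.03 without Salmonella replicate 1, -0.06 without control replicate 1, -0.14 without Salmonella replicate 2 and -0.17 without Salmonella replicate 4.

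Control levels are set here against background only, since the values are not stated to be per length. The control means of the 11 that rose had a median of 5.08, close to background, with a range from 4.44 to 8.91. Those of the 21 that fell had a median of 8.95, with a range from 5.31 to 13.21. The 52 members not called had a median control mean of 7.29. Genes that rose stood lower in control than genes that fell over the whole table as well. By the mean in each control library, all 1175 genes that rose stood at 5.94 to 6.23 and the members among them at 5.21 to 6.13. All 1338 genes that fell stood at 7.44 to 7.65 and the members among them at 9.21 to 9.53.

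The plot of 12 members by library shows the forms these patterns take.

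**Figure D1:**
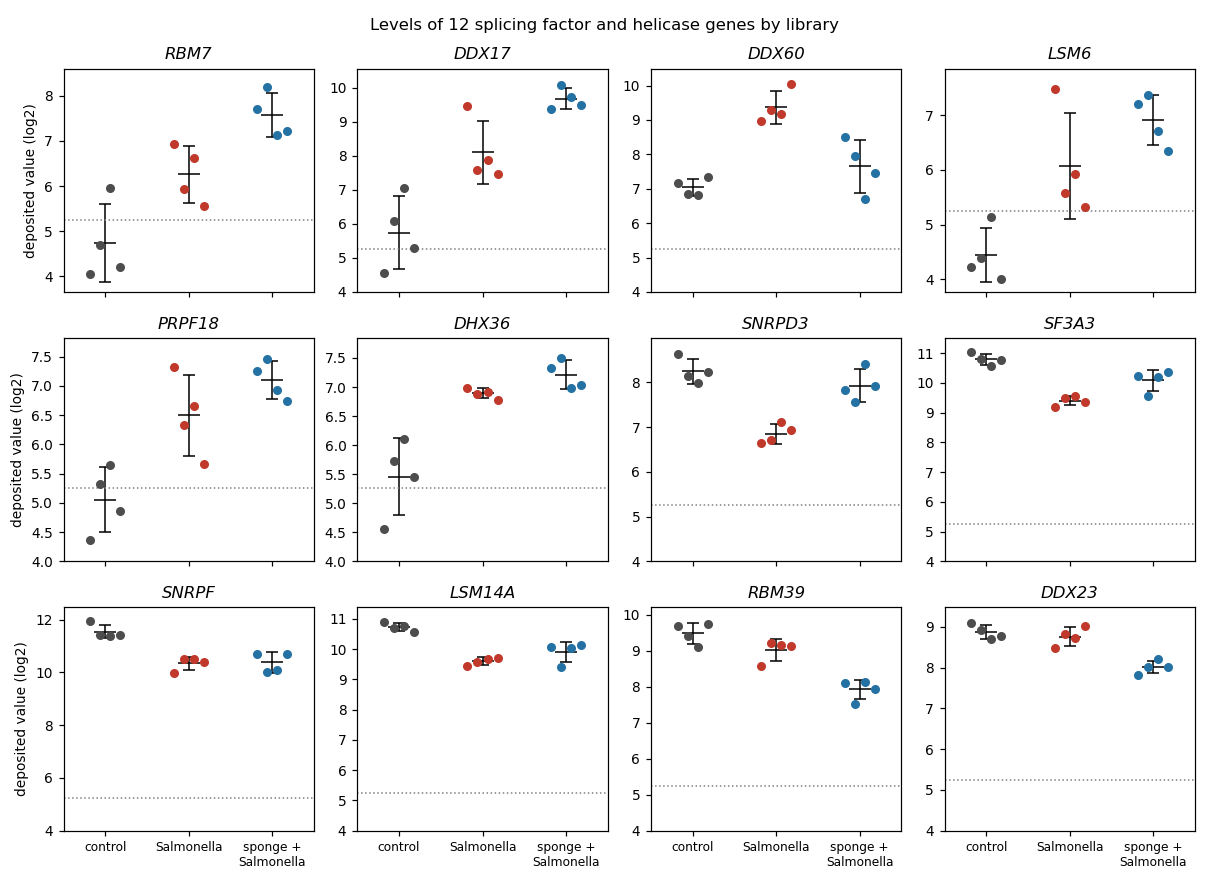
Deposited log2 value (y axis) of 12 members in each library, by group (x axis); points are libraries, the horizontal tick and bars are the mean and SD of 4 libraries, and the dotted line is the background level of 5.25. RBM7, LSM6, PRPF18 and DHX36 had control means near background, while SF3A3, SNRPF and LSM14A fell from levels above 10, and RBM39 and DDX23 were low in the sponge plus Salmonella group.

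In the sponge plus Salmonella group against Salmonella, DDX60 fell by 1.72, RBM39, a splicing coactivator, fell by 1.09, the DNA helicase DDX11 fell by 1.03 and RBM42 fell by 0.98 log2 units. DDX17 rose by 1.58, RBM7 by 1.30, HNRNPH2 by 1.13 and SNRPD3 by 1.08, and of these 4 calls only that of SNRPD3 held when each library in turn was left out. DDX11 and HNRNPH2 had means over the 12 libraries of 5.22 and 5.19, just below the background level. In all, 16 members (19.0%) were called, against 25.0% of all genes, with 6 higher (7.14%, all genes 11.9%) and 10 lower (11.9%, all genes 13.2%). The groups did not overlap for 13 members (15.5%), against 23.8% of all genes. Among genes at or above the background level, 12 of 69 members (17.4%) were called, against 31.7%, with 4 higher (5.80%, against 13.0%) and 8 lower (11.6%, against 18.7%). The median member difference was -0.02 and that of all genes -0.04. The member median changed sign under quantile normalization (0.07) and without sponge plus Salmonella replicate 2 (0.01). The count fell to 10 without Salmonella replicate 4, and the number called higher fell to 2 without Salmonella replicate 2 and 3 without Salmonella replicate 4.

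Between the sponge plus Salmonella and control libraries, 43 members (51.2%) were called, against 40.9% of all genes. Of these, 13 were higher (15.5%, all genes 17.9%) and 30 lower (35.7%, all genes 23.0%). The groups did not overlap for 42 members (50.0%), against 39.7% of all genes. Among genes at or above the background level, 35 of 69 members (50.7%) were called, against 49.7%, with 10 higher (14.5%, against 19.8%) and 25 lower (36.2%, against 29.9%). DDX17, RBM7, LSM6, HNRNPH2 and PRPF18 were among those more than 2 log2 units higher, and RBM39, SNRPF, DDX56, RBM42, DDX41 and SNRPD2 were more than 1 unit lower. Of these, HNRNPH2 was below the background level by its mean over all libraries. The median member difference was -0.20, with -0.07 for all genes, and these became -0.32 and -0.20 after centring, where the calls over all genes changed from 1336 higher and 1721 lower to 1062 higher and 2569 lower. This comparison shares its libraries with the other 2, and the 3 are given side by side below without a count of shared calls.

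**Figure D2:**
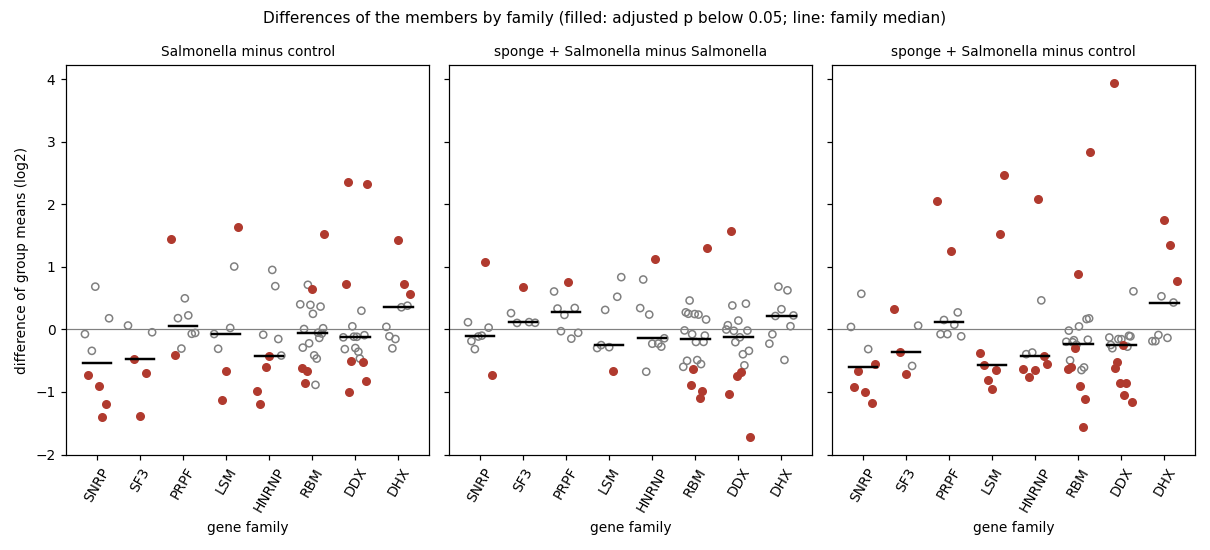
Difference of group means in log2 units (y axis) for the members described, by family (x axis), in the 3 comparisons; filled points have an adjusted p below 0.05 and the black line is the family median. The Salmonella medians are -0.54 for SNRP and 0.35 for DHX, and the highest point is DDX17, at 3.94 between the sponge plus Salmonella and control groups.

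The Sm ring has 6 measured genes, and 4 of them fell with Salmonella while 0 rose, against 17.9% and 15.7% of all genes. SNRPD3 read 8.63, 8.14, 7.99 and 8.23 in control replicates 1 to 4, 6.65, 6.71, 7.13 and 6.93 in the Salmonella libraries, and 7.83, 7.56, 8.42 and 7.91 in the sponge plus Salmonella libraries. Every Salmonella library lay below every other library. The difference was -1.39 ± 0.21 (SE) for Salmonella against control (adjusted p = 0.00018) and 1.08 ± 0.21 for the sponge plus Salmonella group against Salmonella (adjusted p = 0.0026). Against control the sponge plus Salmonella group differed by -0.32 ± 0.21 (adjusted p = 0.2419).

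SNRPF was low in both treated groups. Its control values were 11.94, 11.43, 11.39 and 11.44, its Salmonella values 9.996, 10.52, 10.49 and 10.39, and its sponge plus Salmonella values 10.71, 10.01, 10.09 and 10.70. Both treated groups lay wholly below control, by -1.20 ± 0.20 (adjusted p = 0.00037) and -1.17 ± 0.20 (adjusted p = 0.00049), and they overlapped each other (difference 0.03 ± 0.20). SNRPD2 and SNRPB had the same layout. SNRPD2 went from 13.21 ± 0.15 (SD, n = 4) in control to 12.31 ± 0.24 and 12.21 ± 0.18, and SNRPB from 11.74 ± 0.31 to 11.01 ± 0.07 and 10.82 ± 0.28, with adjusted p between 0.00024 and 0.0046 against control in the treated groups.

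SNRPG was not called with Salmonella (0.18 ± 0.19). It was lower in the sponge plus Salmonella group, at 10.69 to 11.54, than in the Salmonella group, at 11.55 to 11.96. That difference of -0.73 ± 0.19 had an adjusted p of 0.0116, which became 0.0652 under quantile normalization. Its call against control (-0.55 ± 0.19, adjusted p = 0.0280) was lost when control replicate 1 or sponge plus Salmonella replicate 2, 3 or 4 was left out (0.0590 to 0.0897), and under quantile normalization (0.1148). SNRPD1, at 5.12 to 6.82 in the 12 libraries, was called in no comparison. Outside the ring, SNRPA1 of the U2 snRNP stayed between 9.51 and 9.96 in all libraries and was called in no comparison. SNRPC, which helps the U1 snRNP recognize the donor site, was called only between the sponge plus Salmonella and control groups (-0.66 ± 0.20, adjusted p = 0.0166), where the groups overlapped. It was lost when control replicate 1 or sponge plus Salmonella replicate 3 was left out (adjusted p 0.0608 and 0.0515).

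In the SF3 family, 3 of 5 members fell with Salmonella and 0 rose, against 17.9% and 15.7% of all genes. SF3A3 read 11.02, 10.82, 10.55 and 10.76 in control, 9.19, 9.50, 9.56 and 9.36 with Salmonella, and 10.22, 9.56, 10.20 and 10.35 with sponge plus Salmonella. The Salmonella values lay below all controls (-1.38 ± 0.18, adjusted p = 4.6e-05). The sponge plus Salmonella values stood between, 0.68 ± 0.18 above Salmonella (adjusted p = 0.0135, with replicate 2 inside the Salmonella range) and different from control by -0.71 ± 0.18 (adjusted p = 0.0061). SF3B3 and SF3A2 fell by 0.70 and 0.47 log2 units (adjusted p = 0.0278 and 0.0176). For SF3A2 the call ended on leaving out control replicate 1 or Salmonella replicate 3 (adjusted p 0.0545 and 0.0578), and for SF3B3 on leaving out control replicate 1, 2 or 3 or Salmonella replicate 3 or 4 (0.0552 to 0.0827). Against control, the sponge plus Salmonella group also had SF3A2 lower (-0.37 ± 0.14, adjusted p = 0.0471), a call kept only without sponge plus Salmonella replicate 3 or control replicate 4 (0.0503 to 0.1192 in the other 10 fits). SF3A1, at background, was higher there by 0.32 ± 0.11 (adjusted p = 0.0326). That call was lost after centring (0.188) and without any 1 control library or sponge plus Salmonella replicate 2 (0.0534 to 0.0774), and the difference was 0.18 without sponge plus Salmonella replicate 3. SF3B4 was called in no comparison.

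Among the PRPF genes described, PRPF18 was higher and PRPF19 lower with Salmonella. PRPF18, which acts in the second catalytic step of splicing, read 4.37, 5.32, 5.65 and 4.86 in control, 7.33, 6.33, 6.66 and 5.67 with Salmonella, and 7.26, 7.46, 6.93 and 6.74 with sponge plus Salmonella. The lowest Salmonella library was just above the highest control (1.44 ± 0.35, adjusted p = 0.0053), and the sponge plus Salmonella group was clear of control (2.05 ± 0.35, adjusted p = 0.00049). PRPF38A, a tri-snRNP protein that helps activate the spliceosome, was at 4.17 to 4.69 in control, 4.50 to 5.46 with Salmonella and 5.12 to 6.01 with sponge plus Salmonella. Its mean over all libraries, 4.91, was below background. It was called against control in the last group (1.26 ± 0.24, adjusted p = 0.0012). Against Salmonella the call (0.76 ± 0.24, adjusted p = 0.0343) was lost without any 1 of Salmonella replicates 1, 2 and 4 and sponge plus Salmonella replicates 1 and 4 (0.0720 to 0.0968). PRPF19, the scaffold ubiquitin ligase of the complex named after it, fell with Salmonella by 0.41 (adjusted p = 0.0489), and this call was lost without any of 8 libraries, all but control replicate 4 and sponge plus Salmonella replicates 1 to 3 (0.0595 to 0.1306). PRPF3, PRPF6, PRPF31, PRPF38B and PRPF39 were called in no comparison.

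Among the LSm proteins, LSM6 and LSM5 sit in the ring on U6 RNA and in the cytoplasmic ring that promotes mRNA decay. LSM6 read 4.22, 4.39, 5.15 and 4.01 in control, 7.48, 5.58, 5.92 and 5.32 with Salmonella, and 7.21, 7.37, 6.72 and 6.35 with sponge plus Salmonella. The Salmonella libraries were above all controls but spread widely, with replicate 1 highest (1.64 ± 0.42, adjusted p = 0.0075), and the sponge plus Salmonella libraries were all above 6 (2.47 ± 0.42 against control, adjusted p = 0.00048). LSM5, too, had its Salmonella extremes in those replicates, 6.98 in replicate 1 and 4.74 in replicate 4, and was called only for sponge plus Salmonella against control (1.53 ± 0.42, adjusted p = 0.0101).

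LSM3, of the same rings, went the other way in the sponge plus Salmonella group, at 9.41 to 9.85 against 9.99 to 10.36 in control (-0.64 ± 0.19, adjusted p = 0.0143) and 9.90 to 10.76 with Salmonella (-0.67 ± 0.19, adjusted p = 0.0196). The latter call was lost without Salmonella replicate 4 or sponge plus Salmonella replicates 3 or 4 (0.0504 to 0.0639). LSM14A, a P-body protein that represses translation, read 10.90, 10.69, 10.75 and 10.58 in control, 9.44, 9.59, 9.68 and 9.71 with Salmonella, and 10.07, 9.42, 10.03 and 10.13 with sponge plus Salmonella. Both treated groups were below control, by -1.13 ± 0.16 (adjusted p = 0.00014) and -0.81 ± 0.16 (adjusted p = 0.0015). Its paralog LSM14B fell too, by 0.67 and 0.95, from a control mean of 5.31 to means under the background level. Between sponge plus Salmonella and control, 2 of 7 LSM members were higher and 5 lower, against 17.9% and 23.0% of all genes. Of the lower ones, the call of LSM1 (-0.37 ± 0.14) was lost under quantile normalization and without any 1 of control replicates 1, 2 and 4 and sponge plus Salmonella replicates 2, 3 and 4 (0.0564 to 0.1024), and that of LSM11 on leaving out control replicate 1 or 3 or sponge plus Salmonella replicate 1, 2 or 3 (0.0649 to 0.0945).

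The heat map of the members shows these opposite movements within families.

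**Figure D3:**
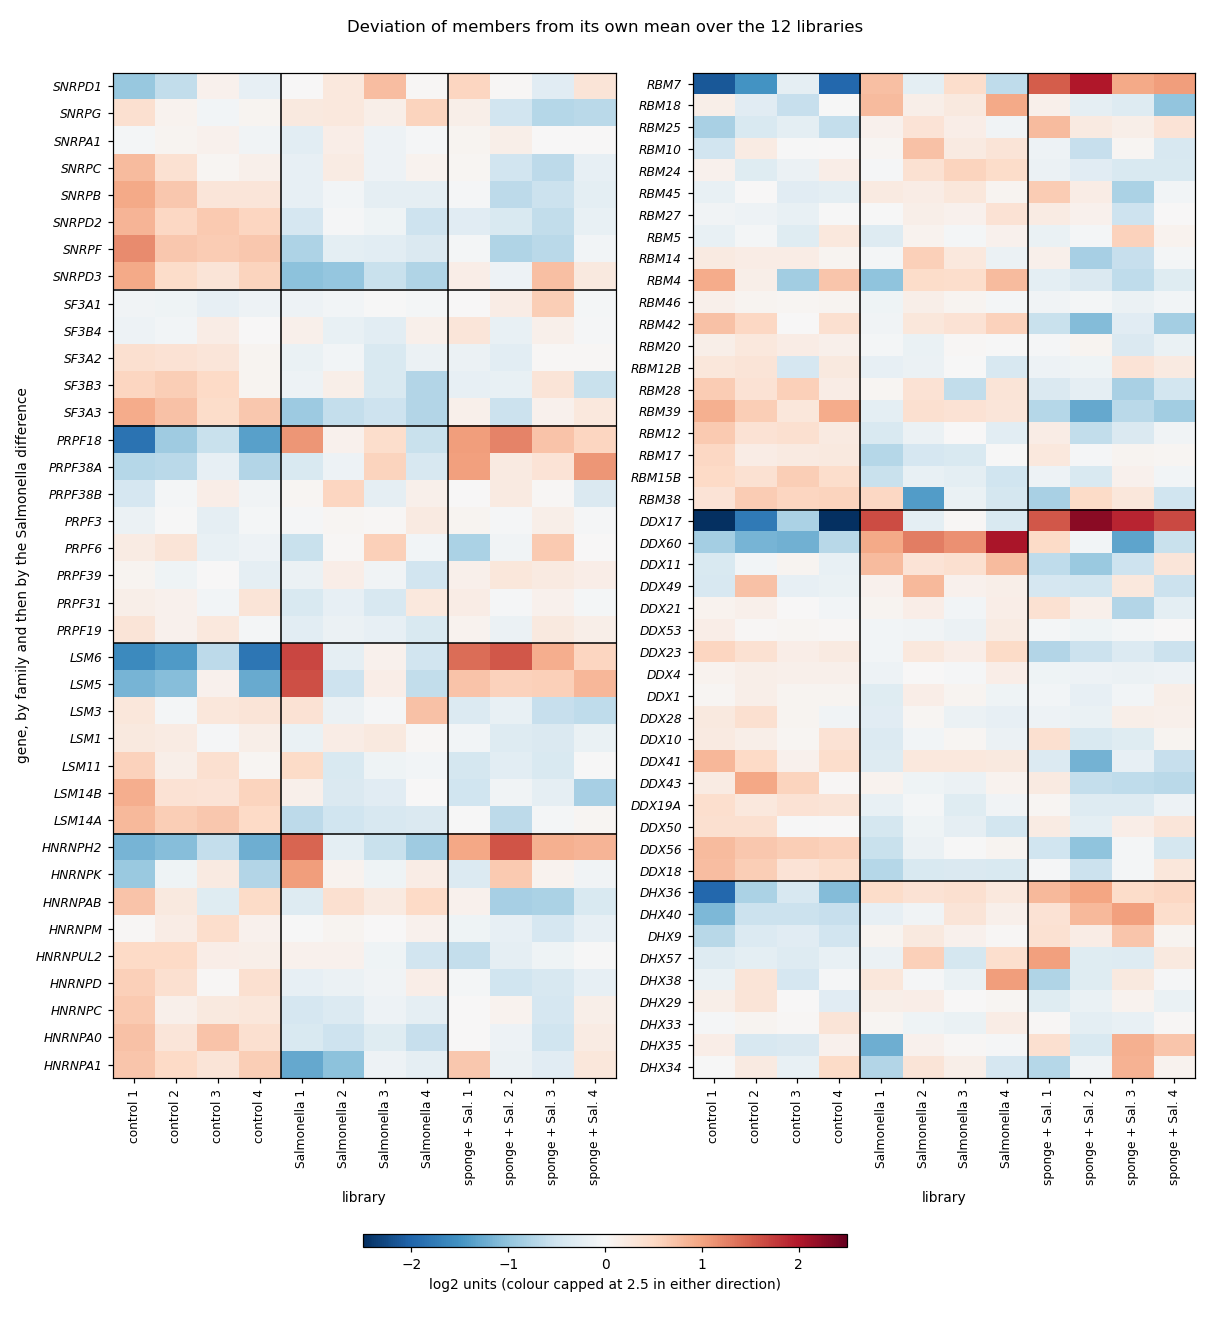
Each row is a member and each column a library; colour is the value minus the gene's mean over the 12 libraries in log2 units (blue low, red high, capped at 2.5). Black lines separate groups and families. DDX17, RBM7, LSM6 and PRPF18 are blue in control libraries, and SNRPD3 is blue in the Salmonella libraries.

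Of 9 hnRNPs, 4 fell with Salmonella and 0 rose, against 17.9% and 15.7% of all genes. HNRNPA0, known to bind AU-rich mRNA, read 10.14, 9.72, 10.14 and 9.83 in control and 9.04, 8.90, 9.13 and 8.85 with Salmonella, a clear gap (-0.98 ± 0.17, adjusted p = 0.00053). With sponge plus Salmonella it read 9.42, 9.30, 8.93 and 9.63, also below control (-0.64 ± 0.17, adjusted p = 0.0082). HNRNPA1, a repressor of splice sites, read 6.68, 6.50, 6.30 and 6.60 in control, 4.71, 4.96, 5.87 and 5.77 with Salmonella, and 6.66, 5.84, 5.71 and 6.28 with sponge plus Salmonella. It fell with Salmonella (-1.19 ± 0.30, adjusted p = 0.0064), and the last group overlapped both others and was called against neither.

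HNRNPC fell with Salmonella (-0.61 ± 0.17, adjusted p = 0.0128). HNRNPD, known as the mRNA decay factor AUF1, fell by 0.42 (adjusted p = 0.0458) with overlapping groups, and this call was lost without any 1 of 8 libraries, all but control replicate 3, Salmonella replicate 4 and sponge plus Salmonella replicates 1 and 2 (0.0523 to 0.1399). HNRNPD was lower in the sponge plus Salmonella group than in control without overlap (-0.65 ± 0.15, adjusted p = 0.0041). HNRNPH2, which binds G-rich RNA, was called higher. It read 4.04, 4.12, 4.59 and 3.97 in control, 6.64, 4.94, 4.64 and 4.31 with Salmonella, and 6.16, 6.77, 6.08 and 6.03 with sponge plus Salmonella. In 7 of the 12 libraries it was at or below 5.25. The Salmonella group was split, with replicate 1 far above the rest, and only the last group was clear of control (2.08 ± 0.39, adjusted p = 0.0009). Its call against Salmonella (1.13 ± 0.39, adjusted p = 0.0457) was lost in 10 of 12 fits that left out 1 library, all but those without control replicate 3 or Salmonella replicate 1 (0.0552 to 0.1396).

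HNRNPK, at 4.59 to 6.58, was called in no comparison. HNRNPAB, HNRNPM and HNRNPUL2 were called lower between sponge plus Salmonella and control, by 0.76, 0.43 and 0.56 log2 units. The HNRNPM call was lost without control replicate 3 (adjusted p 0.0542), and that of HNRNPUL2 when control replicate 1 or 2 or sponge plus Salmonella replicate 1 was left out (0.0542 to 0.0587). For HNRNPAB it ended on leaving out control replicate 1, 2 or 4 or sponge plus Salmonella replicate 2, 3 or 4 (0.0515 to 0.1053). HNRNPM (adjusted p 0.0732) and HNRNPUL2 also lost it under quantile normalization. Several hnRNP, SNRP and DDX genes have near-identical copies or pseudogenes in mammals, and the handling of reads that fit several copies is not stated.

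Among 20 RBM genes, 2 rose and 3 fell with Salmonella, against 15.7% and 17.9% of all genes. In the sponge plus Salmonella group against Salmonella, 1 rose and 4 fell (all genes 11.9% and 13.2%). In that group against control, 2 rose and 6 fell (all genes 17.9% and 23.0%). RBM39, a coactivator and splicing factor related to U2AF, read 9.68, 9.42, 9.09 and 9.73 in control, 8.57, 9.20, 9.16 and 9.11 with Salmonella, and 8.09, 7.52, 8.13 and 7.94 with sponge plus Salmonella. The last group lay below all 8 other libraries (-1.09 ± 0.20 against Salmonella, adjusted p = 0.0018, and -1.56 ± 0.20 against control, adjusted p = 9e-05). The Salmonella difference was -0.47 ± 0.20 (adjusted p = 0.0857). RBM42 had the same layout, at 7.40 to 8.20 in the last group, 8.40 to 9.05 with Salmonella and 8.50 to 9.21 in control (-0.98 ± 0.21 and -1.11 ± 0.21, adjusted p = 0.0046 and 0.00098).

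RBM7, an adaptor of the nuclear RNA exosome, read 4.06, 4.70, 5.96 and 4.22 in control, 6.93, 5.94, 6.62 and 5.55 with Salmonella, and 7.71, 8.19, 7.13 and 7.23 with sponge plus Salmonella. Control replicate 3 lay within the Salmonella range, and the last group lay above all others. The differences were 1.53 ± 0.41 with Salmonella (adjusted p = 0.0104) and 2.83 ± 0.41 for the last group against control (adjusted p = 0.00019). Against Salmonella, the difference of 1.30 ± 0.41 (adjusted p = 0.0321) lost its call on leaving out Salmonella replicate 2 or 4 or sponge plus Salmonella replicate 1 or 2 (0.0632 to 0.0940). RBM25, which regulates alternative splicing with the U1 snRNP, was higher than control in both treated groups without overlap (0.64 ± 0.18, adjusted p = 0.0118, and 0.89 ± 0.18, adjusted p = 0.0014).

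RBM15B, an adaptor of mRNA methylation, read 6.78 to 7.01 in control and 5.84 to 6.22 with Salmonella (-0.85 ± 0.19, adjusted p = 0.0035). Its gene model overlaps that of DCAF1. The sponge plus Salmonella group was lower than control as well (-0.60 ± 0.19, adjusted p = 0.0218), though not on leaving out control replicate 3 or sponge plus Salmonella replicate 2 (0.0521 and 0.0602). RBM17, a splicing factor that contacts SF3B, fell with Salmonella (-0.67 ± 0.17, adjusted p = 0.0070) and read 8.50 to 8.80 with sponge plus Salmonella, where it was called against neither group. RBM12 fell with Salmonella (-0.61 ± 0.20, adjusted p = 0.0266), a call lost without control replicate 1 or either Salmonella replicate 1 or 4 (0.0541 to 0.0821). Its call in the sponge plus Salmonella group against control (-0.63 ± 0.20, adjusted p = 0.0199) was lost without control replicate 1 or sponge plus Salmonella replicate 2 (0.0634 and 0.0616). RBM28, of the nucleolus, was lower in the sponge plus Salmonella group than in control (-0.91 ± 0.24, adjusted p = 0.0091). RBM18 and RBM24 were lower in that group than with Salmonella (-0.89 ± 0.27, adjusted p = 0.0292, and -0.64 ± 0.18, adjusted p = 0.0173). RBM24 stood near background, and the RBM18 call ended on leaving out Salmonella replicate 1 or 4 or sponge plus Salmonella replicate 3 or 4 (0.0542 to 0.0899). RBM20, at background, was called lower against control there (-0.30 ± 0.10, adjusted p = 0.0231), which was lost without control replicate 2 or sponge plus Salmonella replicate 3 or 4 (0.0510 to 0.0774). RBM4, RBM5, RBM10, RBM12B, RBM14, RBM27, RBM38, RBM45 and RBM46 were called in no comparison.

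DDX60 promotes signalling by the RNA sensor RIG-I. It read 7.16, 6.86, 6.82 and 7.33 in control, 8.97, 9.29, 9.16 and 10.05 with Salmonella, and 8.49, 7.95, 6.69 and 7.46 with sponge plus Salmonella. Every Salmonella library exceeded all others, and the last group overlapped control. The differences were 2.33 ± 0.32 with Salmonella (adjusted p = 9.4e-05), -1.72 ± 0.32 for sponge plus Salmonella against Salmonella (adjusted p = 0.0021) and 0.61 ± 0.32 against control (adjusted p = 0.1451). Its Sscrofa11.1 gene model spans chromosome 14 from 21077491 to 21163563. DHX36 and DHX9, helicases that unwind G-quadruplexes and double-stranded RNA and have been linked to nucleic acid sensing, rose with Salmonella and stayed high. DHX36 read 4.55, 5.73, 6.11 and 5.44 in control, 6.99, 6.87, 6.92 and 6.78 with Salmonella, and 7.33, 7.50, 6.98 and 7.04 with sponge plus Salmonella. Every treated library lay above every control, and the controls spread most (1.43 ± 0.28, adjusted p = 0.0014, and 1.75 ± 0.28, adjusted p = 0.00035, against control). DHX9 rose by 0.56 ± 0.19 (adjusted p = 0.0339), a call that ended on leaving out control replicate 1 or 4 or Salmonella replicate 1, 2 or 3 (0.0506 to 0.0968) and after centring or quantile normalization, and by 0.78 ± 0.19 in the last group (adjusted p = 0.0049).

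Of 6 measured helicases that act with the spliceosome, 2 rose with Salmonella and 0 fell, against 15.7% and 17.9% of all genes. DDX17 read 4.55, 6.07, 7.06 and 5.29 in control, 9.48, 7.60, 7.88 and 7.46 with Salmonella, and 9.39, 10.09, 9.74 and 9.49 with sponge plus Salmonella. Controls varied widely, and both treated groups lay above them (2.36 ± 0.48, adjusted p = 0.0017, and 3.94 ± 0.48, adjusted p = 7.3e-05). The difference between the treated groups was 1.58 ± 0.48 (adjusted p = 0.0279). They overlapped through Salmonella replicate 1, and this call ended on leaving out Salmonella replicate 2, 3 or 4 or sponge plus Salmonella replicate 2 or 3 (0.0603 to 0.0805). DHX40 rose by 0.73 ± 0.23 (adjusted p = 0.0225), no longer called on leaving out control replicate 1 (0.0816) or Salmonella replicate 3 (0.0664), and by 1.35 ± 0.23 in the last group against control (adjusted p = 0.00045).

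DDX23, the tri-snRNP helicase that releases the U1 snRNP, was not called with Salmonella and was lower with the sponge. It read 9.09, 8.93, 8.71 and 8.77 in control, 8.48, 8.81, 8.72 and 9.02 with Salmonella, and 7.82, 8.01, 8.20 and 8.02 with sponge plus Salmonella, a group clear of both others (-0.75 ± 0.16, adjusted p = 0.0046, and -0.86 ± 0.16, adjusted p = 0.00089). DDX41, linked to both splicing and DNA sensing, was lower in that group than in control (-1.04 ± 0.23, adjusted p = 0.0028). Its call against Salmonella (-0.69 ± 0.23, adjusted p = 0.0419) ended on leaving out control replicate 2 or 4, Salmonella replicate 2, 3 or 4 or sponge plus Salmonella replicate 2 or 4 (0.0548 to 0.1154). Its gene model overlaps that of DOK3. DHX35 and DHX38 were called in no comparison.

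Of 7 measured helicases of ribosome assembly, 3 fell with Salmonella and 0 rose, against 17.9% and 15.7% of all genes. DDX18 read 10.67, 10.50, 10.24 and 10.32 in control, 9.17, 9.51, 9.53 and 9.50 with Salmonella, and 9.86, 9.36, 9.84 and 10.17 with sponge plus Salmonella. The Salmonella group was clear of control (-1.005 ± 0.17, adjusted p = 0.00056), and the last group was lower than control as well (-0.62 ± 0.17, adjusted p = 0.0113). DDX56 fell by 0.82 ± 0.20 (adjusted p = 0.0060) and was below control with sponge plus Salmonella too (-1.17 ± 0.20, adjusted p = 0.00058). DDX50 fell by 0.51 (adjusted p = 0.0372), a call that ended on leaving out control replicate 1 or 2 or Salmonella replicate 1, 3 or 4 (0.0580 to 0.1072). DDX10, DDX21, DDX49 and DHX33 were called in no comparison.

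Of the other helicases, DDX19A, which acts in mRNA export, fell with Salmonella (-0.50 ± 0.15, adjusted p = 0.0199) but not on leaving out control replicate 1 (0.0534) or Salmonella replicate 3 (0.0583). It was lower than control with sponge plus Salmonella too (-0.52 ± 0.15, adjusted p = 0.0136). DDX11, a DNA helicase of sister chromatid cohesion whose gene model overlaps that of WASHC1, read 4.84 to 5.29 in control, 5.57 to 6.02 with Salmonella and 4.29 to 5.53 with sponge plus Salmonella. In 6 of the 12 libraries it was at or below 5.25. Its rise of 0.73 ± 0.25 (adjusted p = 0.0329) ended on leaving out control replicate 1, 2 or 4 or Salmonella replicate 1 or 4 (0.0537 to 0.0919) and under quantile normalization. In the sponge plus Salmonella group it fell by 1.03 from the Salmonella level (adjusted p = 0.0081), and every fit that left out 1 library kept this call. DDX43, near background, and DDX4, at background, were called lower in the sponge plus Salmonella group than in control (-0.86 ± 0.24, adjusted p = 0.0107, with overlap, and -0.24 ± 0.07, adjusted p = 0.0167). DDX1, DDX28, DHX29, DHX34 and DHX57 were called in no comparison. Of all 84 members, 29 have a gene model that overlaps another in Sscrofa11.1, 23 of them a protein-coding one (SNRPF, SNRPG, SF3A2, LSM3, HNRNPA0, RBM7, RBM12 and RBM18 among those described), and the use of strand in counting is not stated.

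Single libraries held the extremes of the members that moved. Of the 11 members that rose with Salmonella, control replicate 1 was the lowest control in 9 and control replicate 3 the highest in 9. Over all 1175 genes that rose, these shares were 41.4% and 32.9%. Among the Salmonella libraries, replicate 1 was highest in 6 of the 11 (31.2% of the 1175 genes) and replicate 4 lowest in 7 (33.3%). Over all these genes replicate 1 was the lowest more often, in 38.4%. Of the 21 members that fell, control replicate 1 was the highest control in 18 (49.1% of the 1338 genes that fell), and sponge plus Salmonella replicate 2 was the lowest of its group in 15 (40.8%). Without control replicate 1, 8 members were called higher and 14 lower.

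Cell type markers moved with the treatment. Over all genes, 15.7% rose and 17.9% fell with Salmonella. In the sponge plus Salmonella group, 11.9% of all genes were higher and 13.2% lower than with Salmonella. The marker lists hold symbols, not cells, and in such bulk samples fewer cells of a type and less RNA per cell cannot be told apart. Of 12 measured T cell markers, 11 fell with Salmonella, and 10 were higher in the sponge plus Salmonella group than with Salmonella. Their summed level, in log2 units, ran from 13.87 to 14.34 in control, 12.22 to 12.80 with Salmonella and 13.02 to 13.72 in the last group. CD3D, a defining T cell gene, stood at a mean of 4.29 in control, at background, while CD3E had 7.79. The B cell markers fell in 3 of 3 (summed level 12.04 to 12.89, then 9.41 to 9.95, then 11.36 to 11.69) and the NK cell markers in 5 of 5 (14.12 to 14.86, 12.29 to 13.48 and 12.61 to 13.28). Of 7 monocyte markers, 6 rose (11.46 to 12.12, 12.91 to 13.47 and 12.36 to 12.86). Red cell markers, which a PBMC preparation mostly removes, were present, with HBA2 at a mean of 13.81 in control. The mean of the 4 red cell markers was 10.52 ± 0.31 (SD, n = 4) in control, 11.29 ± 0.30 with Salmonella and 10.32 ± 0.88 in the last group (summed level 13.98 to 14.25, 14.22 to 14.65 and 13.88 to 15.17). With Salmonella 1 of the 4 rose, ALAS2, a call that ended on leaving out control replicate 1 (0.0621) or Salmonella replicate 3 (0.0527). Against Salmonella 3 of 4 were lower in the last group, with differences of -1.79 for AHSP, -1.64 for ALAS2 and -1.08 for SLC4A1, while HBA2 was 0.59 higher and not called. The ALAS2 call there was lost without Salmonella replicate 3 (adjusted p 0.0596). HBA2 was called higher than control in the last group (adjusted p = 0.0164), but not without sponge plus Salmonella replicate 2 or 4 (0.0587 and 0.0574). Neutrophil markers rose in 2 and fell in 2 of 8 (10.16 to 10.98, 10.62 to 11.60 and 10.40 to 11.49), dendritic cell markers fell in 3 of 5 (11.26 to 12.06, 9.02 to 9.38 and 10.03 to 10.89), and platelet markers rose in 4 of 5 (11.86 to 12.24, 12.52 to 13.67 and 12.68 to 13.20). No marker is listed at 0. SNRPD3, SF3A3 and HNRNPA1 had their lowest group mean with Salmonella, as the T, B and NK cell lists did. Other members that fell, among them SNRPD2, SNRPB, DDX56 and LSM14B, had theirs with sponge plus Salmonella. The part of cell composition in the members' differences was not tested.

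**Figure D4:**
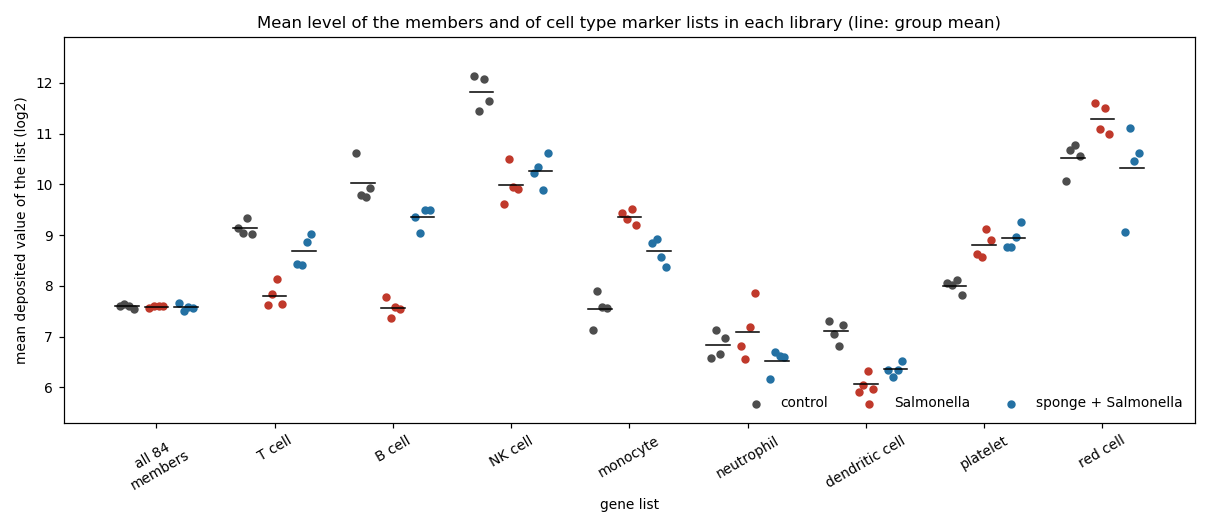
Mean log2 value (y axis) of all 84 members and of 8 cell type marker lists (x axis) in each library; points are libraries and lines are means of 4. The member mean stayed between 7.50 and 7.67 in the 12 libraries, while the lymphocyte lists were lower and the monocyte list higher in the Salmonella libraries.

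Related genes that the naming rule does not take were counted from lists chosen with earlier results of these data known. Over all genes, 15.7% rose and 17.9% fell with Salmonella. In the sponge plus Salmonella group, 11.9% were higher and 13.2% lower than with Salmonella, and 17.9% and 23.0% against control. The list counts below stand beside these shares. Of 42 measured splicing factors outside the named families, 9 rose and 6 fell with Salmonella, with a median of -0.01. TXNL4A and SNRNP200, of the U5 snRNP, fell by 1.34 and 1.24 log2 units, and PPIH, of the tri-snRNP, and CHERP by 1.18 each (adjusted p from 0.00015 to 0.00079). In the sponge plus Salmonella group against Salmonella, 7 rose and 3 fell. The step 2 factor SLU7 fell by 1.10 (adjusted p = 0.00037) and the AU-rich element binder ELAVL1 rose by 1.49 (adjusted p = 0.00061). The mean of ELAVL1 over the 12 libraries was below background. Against control, 11 rose and 10 fell, with AQR, TIA1 and TIAL1 higher by 1.18, 2.58 and 2.16 and CHERP lower (-1.40 ± 0.19, adjusted p = 0.00012). AQR, too, had a mean below background.

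Of a list of 11 CLK, SRPK and DYRK kinases, families known for kinases of SR proteins, 3 were measured. With Salmonella 1 rose and 1 fell, with the sponge 1 rose and 0 fell relative to Salmonella, and against control 2 rose and 1 fell. CLK1 read 3.50, 4.25, 5.55 and 4.10 in control, 8.02, 6.34, 6.58 and 5.002 with Salmonella, and 8.53, 9.25, 9.48 and 8.52 with sponge plus Salmonella. Salmonella replicate 4 fell within the control range and the last group was above all others. CLK1 read below the background level of 5.25 in control replicates 1, 2 and 4 and in Salmonella replicate 4. Its differences were 2.13 ± 0.53 (adjusted p = 0.0064), 2.46 ± 0.53 (adjusted p = 0.0046) and 4.60 ± 0.53 (adjusted p = 6.3e-05), in the order used above. DYRK4 fell with Salmonella (-0.60 ± 0.19, adjusted p = 0.0230), a call lost without control replicate 1 or 4 or Salmonella replicate 1 (0.0541 to 0.0736), and was lower than control with sponge plus Salmonella (-0.72 ± 0.19, adjusted p = 0.0073). DYRK3, near background, was called only there (0.53 ± 0.16, adjusted p = 0.0171), and not after centring (0.0595). Of 9 measured genes of the exon junction complex and mRNA export, 0 rose and 2 fell with Salmonella: UPF3A fell by 1.497 and NXT1 fell by 1.31. UPF3A was 0.98 ± 0.20 higher in the sponge plus Salmonella group than with Salmonella (adjusted p = 0.0031). In the list of the SMN complex, which loads Sm rings onto small nuclear RNA, 1 of 4 measured genes fell with Salmonella and 0 rose, and this was GEMIN4 (-1.28 ± 0.23, adjusted p = 0.0007).

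Other RNA helicases and RNA sensing genes stood beside DDX60. Of 10 measured, 6 rose and 1 fell with Salmonella, and in the sponge plus Salmonella group against Salmonella 1 rose and 5 fell. IFIH1, which encodes the RNA sensor MDA5, read 7.66, 7.71, 7.35 and 7.90 in control, 10.40, 10.64, 10.67 and 11.37 with Salmonella, and 9.92, 9.33, 8.67 and 8.14 with sponge plus Salmonella. The last group lay between the other two without overlap, at 3.12 ± 0.31 for Salmonella (adjusted p = 6e-06), -1.76 ± 0.31 against Salmonella (adjusted p = 0.0015) and 1.36 ± 0.31 against control (adjusted p = 0.0035). OAS2, which makes the activator of RNase L, and the interferon-induced OASL rose by 4.56 and 4.26 with Salmonella. The differences with the sponge were -1.69 ± 0.35 (adjusted p = 0.0034) for OAS2 and -2.90 ± 0.38 (adjusted p = 0.00028) for OASL, relative to Salmonella. IRF1, a transcription factor of interferon responses, rose by 2.29 with Salmonella and fell by 1.53 from there in the sponge plus Salmonella group.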

How the data were processed

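The authors deposited 1 table of log2 values for 7480 gene symbols in 12 libraries. The submitters' processing notes name the aligner Bowtie, the genome build Sscrofa11.1 and R 3.4.2. How reads were counted, normalized and filtered, and the logarithm's base, are not stated there. Per the labels' protocols, RNA from a PAXgene kit with an integrity number above 8 was made into Illumina TruSeq libraries, and per the series text they were sequenced from one end for 50 bases. Columns were matched to samples by title, and 0 value columns were left over.

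The table holds no counts, so no count model was used. With limma 3.58.1 (R 4.3.3), a model of 3 group means with a variance trend was fitted to all 12 libraries at their deposited values. The fit was tested on simulated data. A gene counts as called at p below 0.05 after Benjamini-Hochberg adjustment over the whole table. The named members are the called ones with no overlap of the 2 groups and a mean of at least 5, up to the 10 largest rises and falls, with the smallest p of each family, DDX60, and the 4 called genes with the smallest p of each other list. Other members are given with their values. Of the members, 1 stays in the fits and counts but is not reported here or plotted singly. The members and gene lists were chosen with earlier results of these data known. Gene positions come from RefSeq for Sscrofa11.1, where all 84 members were found. Alternatives were median centring, quantile normalization, a background filter, other variance settings, the replicate block and leaving out each library.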

Additional observations from a re-analysis of the deposited data

Results flagged for a closer look

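Groups of 4 libraries were screened for a library far from the other 3, for 34 named members, the mean of all members and the family means. Of 129 groups, 15 (11.63%) held one, where chance gives about 1 in 20 for independent groups of normal values. These groups share the same libraries, and the family means include named members. An excess over chance therefore cannot be read from this count. In control, DHX40 was at 4.29 in replicate 1 (others 4.83 to 4.89), LSM3 at 9.99 in replicate 2 (10.32 to 10.36), LSM5 at 5.48 in replicate 3 (4.11 to 4.30) and PRPF38A at 4.69 in replicate 3 (4.17 to 4.24). SNRPF was at 11.94 in control replicate 1 (11.40 to 11.44 in the others), and so was the SNRP family mean, at 10.28 (10.01 to 10.05).

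In the Salmonella group, replicate 1 was lowest for DDX18 at 9.17 (9.50 to 9.53), DDX41 at 7.82 (8.38 to 8.41), RBM39 at 8.57 (9.11 to 9.20) and the mean of the RBM family at 7.24 (7.38 to 7.41). SNRPB was at 11.12 in Salmonella replicate 2 (10.96 to 10.98). In the sponge plus Salmonella group, replicate 2 was highest for HNRNPH2 at 6.77 (6.03 to 6.16) and lowest for LSM14A at 9.42 (10.03 to 10.13). The HNRNP family mean was at 8.13 in replicate 3 (8.37 to 8.41), and the RBM family mean at 7.32 in replicate 1 (7.13 to 7.15).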

How the results depend on the processing

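Of the member calls, 22 of 32 for Salmonella against control held under every alternative that tested the gene. The counts were 8 of 16 for sponge plus Salmonella against Salmonella and 31 of 43 for sponge plus Salmonella against control. The background filter did not test members with a mean below background. Among the calls that held, these were LSM14B in the first comparison and DDX11 and RBM24 in the second. In the last they were HNRNPH2, PRPF38A, DDX43, LSM14B and DDX4. With median centring, the median member difference was -0.19 (Salmonella against control) and -0.32 (sponge plus Salmonella against control). Family means then changed to -0.60 for SF3, -0.33 for HNRNP and -0.11 for RBM in the first comparison, and to 0.55 for PRPF, -0.31 for RBM and -0.26 for DDX in the last. Quantile normalization changed the median of sponge plus Salmonella against Salmonella from -0.0208 to 0.0699. With genes at or above background only, fewer genes were tested: 524 of all genes were called higher in sponge plus Salmonella against Salmonella, and 1918 (766 higher) against control. Family means were then -0.65 for SF3 and -0.40 for HNRNP with Salmonella. In sponge plus Salmonella against control they were 0.43 for LSM and -0.42 for HNRNP. These means changed because SF3A1, HNRNPH2, LSM11 and LSM14B, below background, left their families, while the differences of the remaining members stayed the same. The cause of the other shifts was not tested.

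Leaving out 1 library gave 22 to 34 called members, 8 to 13 higher and 14 to 22 lower, with medians from -0.1717 to -0.0315, for Salmonella against control. It gave 10 to 19 (2 to 7 higher, 7 to 12 lower) for sponge plus Salmonella against Salmonella, and 34 to 43 against control. The deviations of same-numbered libraries from their group means had correlations from -0.36 to 0.38 over the 3 comparisons. Those of differently numbered libraries ran from -0.42 to 0.50. The animals behind each library are not stated, so these values cannot tell whether the numbers pair libraries. With the replicate block, 28, 16 and 42 members were called in the 3 comparisons. All columns on the value steps of the most tied column, an alternative chosen after seeing the data, gave 32, 16 and 43. Planned rounding to the coarsest step was not run. Pseudocount and count-model alternatives were not run because the values are already log2. Depth is unknown, so limits from counting cannot be given.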
